A study of Saccharomyces cerevisiae with 3 samples.

Results

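The genes described here carry budding yeast from G1 into S phase and copy its DNA: 34 genes out of 5598 named on the arrays, listed by symbol as targets of the factors SBF and MBF together with the MCM helicase genes and CDC6. All 34 were found, on 55 probes, with 13 genes on 1 probe and 21 on 2. The cells were Saccharomyces cerevisiae, a gcr1 null mutant and its wild type, both pregrown in rich YEP medium with 3% pyruvate. GCR1 encodes an activator of glycolytic gene transcription. RNA of the mutant and of the wild type shared an array at each time: 0 min (just before glucose), 20 min and 60 min after glucose, 1 array each. The labels give no strain background, no allele of the null mutation and no glucose concentration.

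In budding yeast, the cyclin Cln3 with the kinase Cdc28 relieves the repressor Whi5 from SBF (Swi4 with Swi6) late in G1, and SBF and MBF (Mbp1 with Swi6) then switch on a large burst of genes. SBF targets lean towards cyclins, budding and the cell wall, and MBF targets towards DNA synthesis. The MCM genes and CDC6 come on earlier, around the end of mitosis, when the helicase is loaded at origins, and nutrients, glucose among them, set how readily cells pass this point. In a bulk culture, a change in the share of cells in a phase and a change in RNA per cell cannot be told apart.

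Each value is a log2 ratio of the strains on 1 array, the mean over a gene's probes. A size of 1.0 is 2-fold. No label states which strain was divided by which. Titles and design mention the mutant before the wild type, so the ratio is likely that of mutant to wild type, yet GCR1 itself was on the positive side, with 0.97, 0.91 and 1.51 on the arrays for 0, 20 and 60 min. No source used here gives the position of its 2 probes relative to the inactivated part of the gene. Signs are therefore given as positive or negative, positive being the side of GCR1, and every direction below would turn with the numerator. On the same sign convention GPM1 and ENO2, glycolytic genes known as targets of Gcr1, had -5.55 and -4.73 at 0 min. For targets of a lost activator, a ratio of mutant to wild type would be negative, as these 2 were. On that reading negative means lower RNA in the mutant, and the sign of GCR1 itself is the one that goes the other way.

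With 1 array per time there was no test, no p-value and no replicate spread. The error that could be measured was the gap between the 2 probes of a gene. Over all genes with 2 probes, 95% of gaps were below 0.41, 0.48 and 0.37 on the arrays in order of time. The 21 members with 2 probes had median gaps of 0.09, 0.13 and 0.15 and largest gaps of 0.49 for PCL1 at 0 min, 0.63 for CLB6 at 20 min and 0.35 for CLN2 at 60 min. These gaps leave out variation between cultures, labelling reactions and arrays.

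On pyruvate ratios were small over the array as a whole, these genes included. The members' median was more negative at 60 than at 20 min after glucose. At 0 min the 34 values ran from -0.75 (CLB6) to 0.92 (MNN1), with a median of 0.26 beside 0.07 for all genes, and 25 lay above the all-gene median. None of the 34 was at least 2-fold negative or positive, where 2.25% of all genes were negative to that extent and 1.09% positive. A count of 0 among 34 is near those shares and does not set the members apart. At 20 min the median was -0.30 beside -0.08 for all genes. At that time 6 of 34 (17.6%) were at least 2-fold negative, close to the 16.5% of all genes, and 2 of 34 (5.88%) at least 2-fold positive, against 17.1% of all genes. Without CLN3, CDC6 and the MCM genes, 2 of 26 were negative to that extent at 20 min, with a median of -0.09.

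At 60 min the members stood further from the rest. Their median was -0.91 beside 0.05 for all genes, and 30 of 34 were below 0. The count at least 2-fold negative was 15 of 34 (44.1%), against 13.6% of all genes, and none was at least 2-fold positive, against 16.2% of all genes. The highest member was again MNN1, at 0.29, and the lowest was the clamp gene POL30, at -2.16. The POL30 value came from 1 probe and matched the rule for low signal given under processing.

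**Figure D1:**
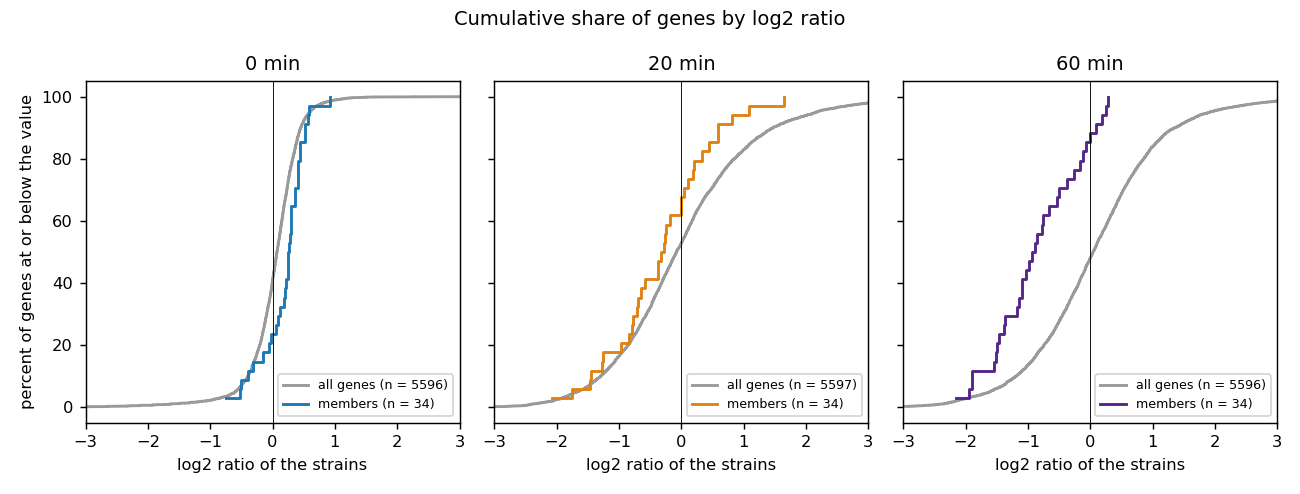
Cumulative percent of genes (vertical axis) at or below each log2 ratio of the strains (horizontal axis, shown from -3 to 3), for all genes in grey and the 34 members in colour, 1 panel per array. The members' curve lies slightly right of the grey one at 0 min, with a median of 0.26 against 0.07, and well left of it at 60 min, with a median of -0.91 against 0.05.

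The members did not all pass 2-fold at the same time. At both 20 and 60 min, 5 of 34 (14.7%, against 7.35% of all genes) were at least 2-fold negative: POL30, MCM2, MCM5, MCM6 and MCM7. A further 10 (29.4%, against 6.17% of all genes) passed 2-fold at 60 min and not at 20 min: CLN2, CLB6, TOS4, RNR1, CDC21, POL2, CDC9, RAD27, MCM3 and MCD1. CDC45 alone (2.94%, against 9.17% of all genes) passed it at 20 min and not at 60 min. Some of these calls turned on the threshold. RAD27 already had -0.97 at 20 min, and CDC45 still had -0.86 at 60 min. MCM3 went only from -0.80 to -1.03, a step within the probe error of that difference (95% of gaps below 0.53). YOX1 and MNN1 were at least 2-fold positive at 20 min. The other 16 (47.1%, against 54.6% of all genes) stayed within 2-fold at both times, and MCM4, CLN3 and RFA1 among them lay near the threshold at 60 min, at -0.88, -0.98 and -0.94.

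**Figure D2:**
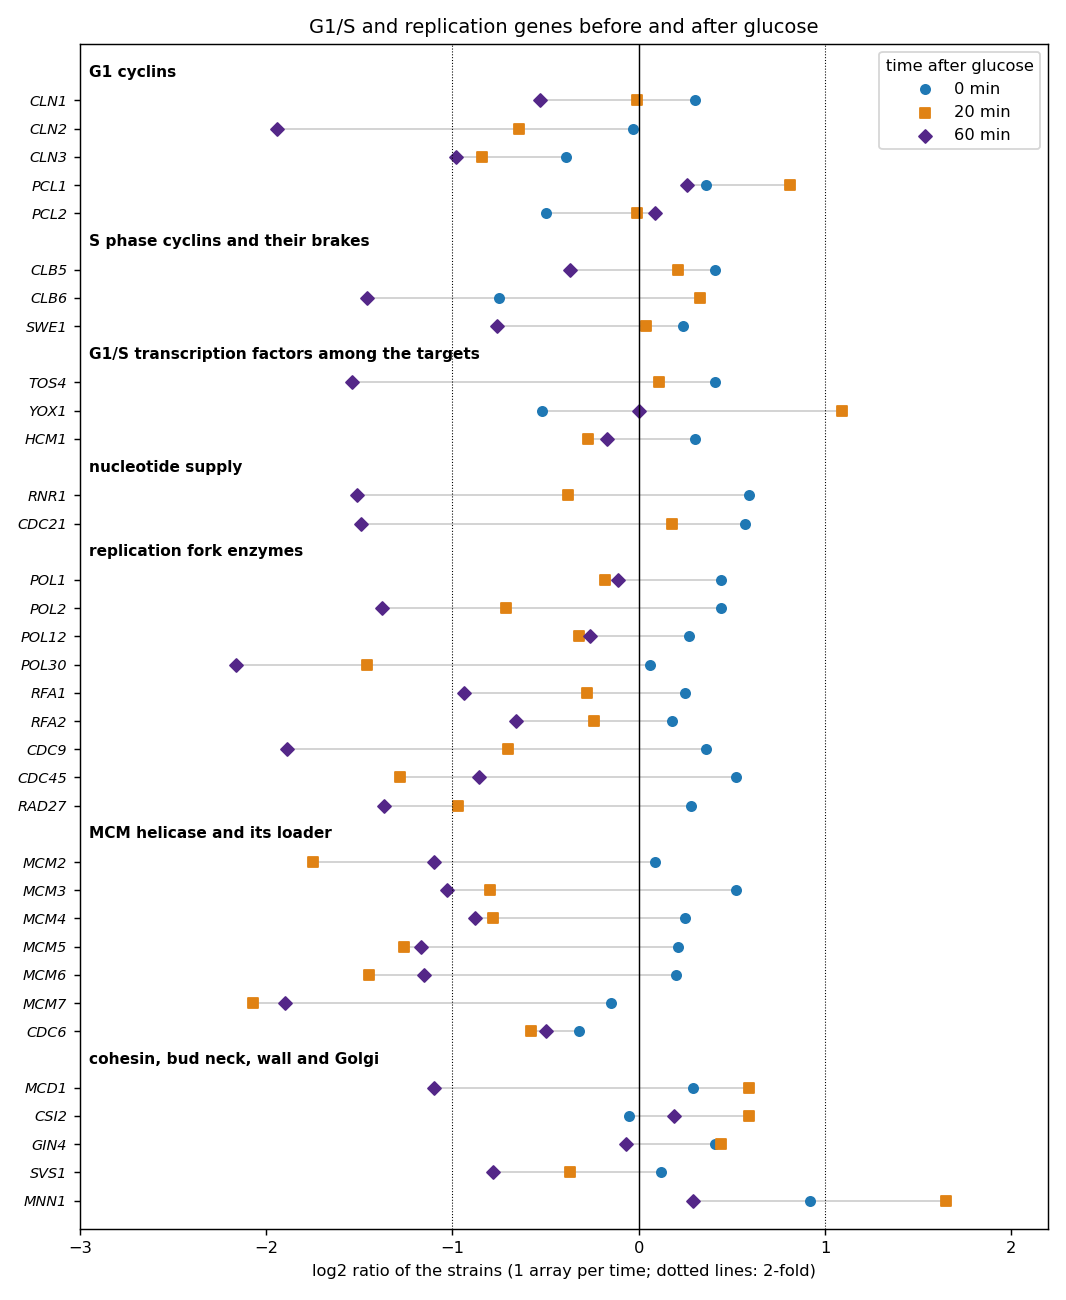
Log2 ratio of the strains (horizontal axis) for each of the 34 members, grouped by role, with a blue circle for 0 min, an orange square for 20 min and a purple diamond for 60 min, each from 1 array. The MCM genes have both later points to the left of 0, from -0.78 to -2.07, while TOS4, CDC21, CLB6 and MCD1 have the 20 min point to the right of 0 and the 60 min point beyond 2-fold on the left.

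The MCM helicase genes had moved together by the first sample after glucose. The MCM genes encode the ring that unwinds DNA ahead of the fork, and all of its subunit genes were measured. In the order 0, 20 and 60 min, kept for every gene from here on, MCM7 had -0.15, -2.07 and -1.90, and its probes gave -1.99 and -2.15 at 20 min. MCM2 had 0.09, -1.75 and -1.10. MCM6 had 0.20, -1.45 and -1.15. These 3 were near 0 on pyruvate and at least 2-fold negative on both later arrays.

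MCM5 followed the same course with 0.21, -1.26 and -1.17. MCM3 had 0.52, -0.80 and -1.03, and MCM4 had 0.25, -0.78 and -0.88. Between 0 and 20 min all 6 ratios moved by more than 2-fold to the negative side, by -1.03 for MCM4 to -1.92 for MCM7. Between 20 and 60 min they moved by -0.23 (MCM3) to 0.65 (MCM2), so the shift was in place by the first sample after glucose. CDC6, whose product loads the ring on origins together with the origin recognition complex, did not share it, with -0.32, -0.58 and -0.50 on the 3 arrays.

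The replication fork enzymes were also negative at both times but to very different degrees. POL30, the sliding clamp PCNA, had 0.06, -1.46 and -2.16, and only 1.95% of all genes lay lower at 60 min. It was read by 1 probe, whose value at 60 min matched the rule for low signal given under processing. CDC9, the DNA ligase that joins Okazaki fragments, had 0.36, -0.70 and -1.89, with probes at -1.99 and -1.78 at 60 min. RAD27, the flap nuclease that trims those fragments, had 0.28, -0.97 and -1.37.

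These enzymes of lagging strand processing thus gave a 3.69-fold ratio for CDC9 and a 2.58-fold ratio for RAD27 at 60 min. POL2, the catalytic subunit of DNA polymerase epsilon, had 0.44, -0.71 and -1.38. CDC45, which activates the helicase, had 0.52, -1.28 and -0.86. Among the 9 members of the fork it had the most negative step from 0 to 20 min, at -1.81. RFA1, the large subunit of the single-stranded DNA binding protein RPA, had 0.25, -0.28 (at low signal by the rule) and -0.94. RFA2, its middle subunit, had 0.18, -0.24 and -0.66.

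The 2 members of the polymerase alpha-primase complex were the nearest to 0 of the 9 fork members at 60 min, while at 20 min their values were like those of RFA1 and RFA2. POL1, its catalytic subunit, had 0.44, -0.18 and -0.11. POL12, its B subunit, had 0.27, -0.32 and -0.26. At 60 min 43.1% of all genes lay below POL1 and 37.0% below POL12, so that both were in the middle of the array.

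Both genes of nucleotide supply were positive on pyruvate and negative late. RNR1, the large subunit of ribonucleotide reductase, had 0.59, -0.38 and -1.51, and its probes agreed to within the probe error with -1.44 and -1.59 at 60 min. CDC21, thymidylate synthase, had 0.57, 0.18 and -1.49. From 94.9% and 94.3% of all genes lying below them at 0 min, they went to 5.91% and 6.11% at 60 min.

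Among the cyclins, the close relatives differed from each other. CLN2, a G1 cyclin under SBF, had -0.03, -0.64 and -1.94, and its 20 min value matched the low-signal rule. CLN1, its close relative, had 0.30, -0.01 and -0.53. CLN3, the upstream G1 cyclin, had -0.39, -0.84 and -0.98 and was already among the lower genes on pyruvate, where 10.3% of all genes lay below it.

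The cyclins of the kinase Pho85 were not negative after glucose beyond the probe error. PCL1 had 0.36, 0.81 and 0.26, and PCL2 had -0.50, -0.01 and 0.09. PCL2 was the member with the most positive difference between 0 and 60 min, at 0.60.

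The S phase cyclins, which start origin firing, had opposite signs on pyruvate. CLB5 had 0.41, 0.21 and -0.37. CLB6 had -0.75, 0.33 and -1.46, the most negative step from 20 to 60 min of any member at -1.78. Its probes disagreed at 20 min, at 0.01 and 0.64, and agreed at 60 min. SWE1, the kinase that restrains mitotic Cdc28, had 0.24, 0.04 and -0.76.

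The transcription factors that act downstream of the G1/S burst each took another course. TOS4, a forkhead-associated domain protein, had 0.41, 0.11 (at low signal by the rule) and -1.54. YOX1, a homeodomain repressor of the early G1 genes that include MCM genes, had -0.52, 1.09 and 0.00. Its only ratio past 2-fold was positive and came on the middle array. The median over the MCM genes was -1.36 on that array and -1.12 on the last, where YOX1 was at 0.00. Whether YOX1 had a part in the MCM ratios was not tested. HCM1, a forkhead activator of genes expressed in S phase, had 0.30, -0.27 and -0.17.

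The remaining members serve the chromosome, the bud and the cell surface. MCD1, the cleavable subunit of the cohesin ring, had 0.29, 0.59 and -1.10. MNN1, a Golgi mannosyltransferase, had 0.92, 1.65 and 0.29 and was the highest member on every array. CSI2, with a part in chitin synthesis, had -0.05, 0.59 and 0.19. GIN4, a kinase of the bud neck, had 0.41, 0.44 and -0.07, and SVS1, a wall protein gene, had 0.12, -0.37 and -0.78.

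The differences between times describe the same shifts free of any constant dye bias of a probe. They share arrays, so they are not independent of each other. From 0 to 20 min, 11 of 34 members moved by at least 2-fold to the negative side (16.4% of all genes did) and 2, YOX1 and CLB6, to the positive side (16.1% of all genes). From 20 to 60 min, 9 of 34 moved that far to the negative side (10.2% of all genes) and none to the positive side (8.45% of all genes). These 9 were CLB6, MCD1, CDC21, TOS4, MNN1, CLN2, CDC9, RNR1 and YOX1, and no MCM gene was among them. The 20 min values of TOS4 and CLN2 were at low signal by the rule, and the probes of CLB6 disagreed at 20 min (0.01 and 0.64). With low-signal genes left out, 7 of 30 members moved that far to the negative side (10.1% of all genes).

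From 0 to 60 min, 17 of 34 moved at least 2-fold to the negative side (13.3% of all genes) and none to the positive side (15.4% of all genes), with 31 of 34 below 0. The median difference was -1.06, beside 0.02 for all genes. The most negative were CDC9 at -2.25, POL30 at -2.22, RNR1 at -2.11 and CDC21 at -2.06, differences of 4.76-fold to 4.17-fold. For POL30 the 60 min value was at low signal by the rule. PCL2 (0.60), YOX1 (0.51) and CSI2 (0.23) were the 3 members above 0.

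Sorted by the factor assigned to them, the members showed different time courses. The classes were assigned from general knowledge with the values already known, and they receive no test. The 8 genes of the Mcm1 class (the MCM genes, CDC6 and CLN3) had medians of 0.15, -1.05 and -1.07 at 0, 20 and 60 min, with 4 (50.0%) and 5 (62.5%) of them at least 2-fold negative at 20 and 60 min, where all genes gave 16.5% and 13.6%. The 15 genes of the MBF class had medians of 0.36, -0.28 and -1.37, with 2 (13.3%) at least 2-fold negative at 20 min, below the share of all genes, and 9 (60.0%) at 60 min. The 8 genes of the SBF class had medians of 0.21, 0.22 and 0.01, and CLN2 was the 1 gene (12.5%, near the share of all genes) at least 2-fold negative at 60 min. From 20 to 60 min the SBF class moved too, with a median step of -0.51 and 7 of 8 below 0. The MBF class had -0.67 and 12 of 15, and all genes a median of 0.16. In that step 2 SBF genes (25.0%) and 6 MBF genes (40.0%) moved at least 2-fold negative, against 10.2% of all genes. From 0 to 60 min the medians were -0.55 (SBF) and -1.39 (MBF). SWE1, YOX1 and HCM1 were not assigned. TOS4, at -1.54 at 60 min, was placed in the MBF class. In the SBF class it would have been a further gene at least 2-fold negative at that time.

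**Figure D3:**
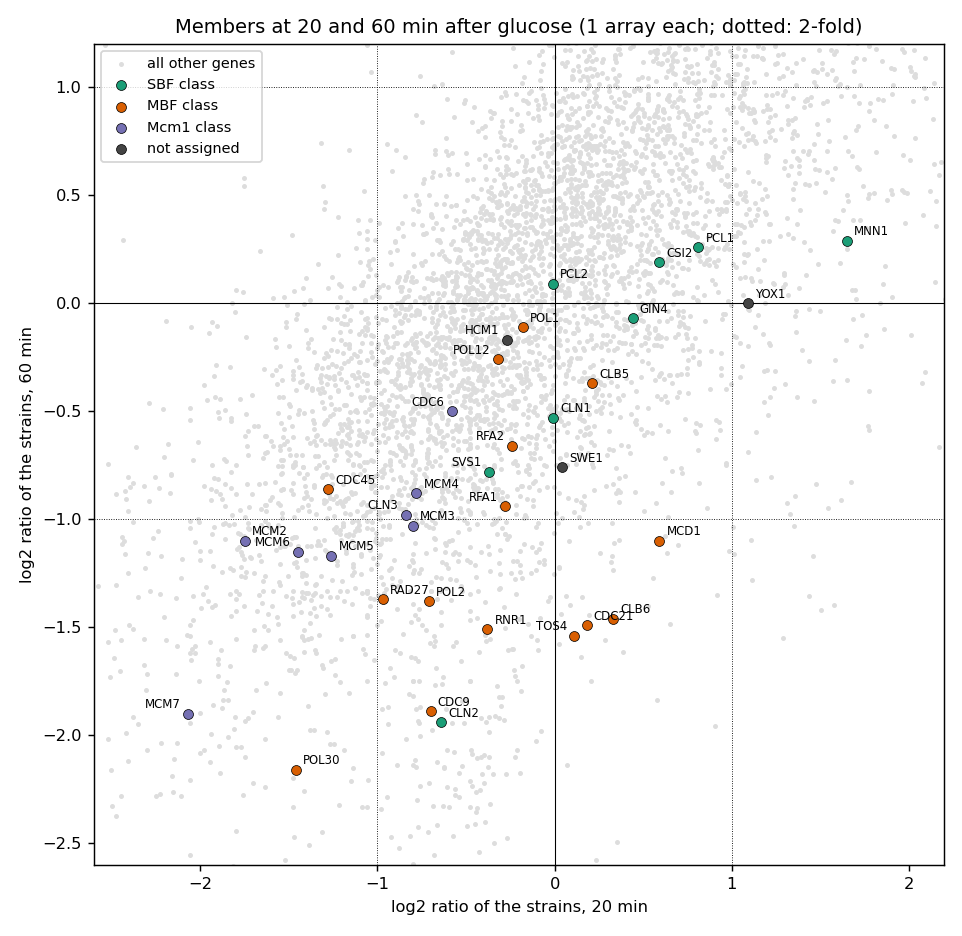
Log2 ratio of the strains at 20 min (horizontal) against 60 min (vertical), 1 array each, for the 34 members coloured by class over all other genes in grey; the axes cover the members' range and leave out grey points beyond it. Mcm1 class genes such as MCM7 and MCM2 lie at the lower left, MBF class genes such as RNR1, CDC21 and CLB6 lie low with 20 min values nearer 0, and most SBF class genes lie near or above 0 at 60 min.

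The upstream machinery of the G1/S switch was on the negative side in part. For every list from here on, the counts stand beside all-gene shares of 16.5% (20 min) and 13.6% (60 min) on the negative side, and 17.1% and 16.2% on the positive side. Among 11 genes for SBF, MBF and their regulators, 3 (27.3%) were at least 2-fold negative at each of 20 and 60 min, with 1 (9.09%) positive at 60 min. WHI5, the repressor of SBF, had -0.59, -1.48 and -1.45, the first 2 at low signal by the rule. NRM1, the corepressor of MBF and itself an MBF target, had 0.04, -0.93 and -1.23. CKS1, the small adaptor of Cdc28, had -0.10, -0.35 and 1.27 and was the positive one.

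The DNA-binding subunits differed. SWI4, of SBF, had 0.14, -1.01 and -1.09, whereas MBP1, of MBF, had 0.13, -0.09 and 0.62. SWI6, shared by both, had 0.57, -1.15 (at low signal by the rule) and -0.70. These 3 were picked with their values known, as the factors that define the group. Among 6 inhibitors and ubiquitin ligase subunits the single gene past 2-fold (16.7%, near the share of all genes) was FAR1, the inhibitor of G1 cyclin kinase in pheromone arrest, with -0.25, -3.48 and -1.79.

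Subunits that share a complex with a member did not all follow it. Ribonucleotide reductase split between its subunits: against RNR1 at -1.51, the small subunits RNR2 and RNR4 had 1.72 and 2.48 at 60 min, and RNR3, the alternative large subunit induced by DNA damage, had 3.56. At 20 min these 3 already stood at 1.22, 1.06 and 3.20, and at 0 min at -0.11, -0.21 and 0.22. RNR3 was thus 11.8-fold positive at 60 min while RNR1 was 2.86-fold negative. The 3 were the only genes past 2-fold of 8 other genes for nucleotide supply, 37.5% positive at each of 20 and 60 min. HUG1, also known as a damage-induced gene and looked at after these values were seen, had -0.78, -0.47 and -0.73. Its values at 20 and 60 min were near the commonest values of those arrays, -0.475 and -0.747, so low signal is possible. Whether DNA damage had a part in any of these ratios was not tested.

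In DNA polymerase epsilon, POL2 at -1.38 was the single subunit gene past 2-fold at 60 min, beside DPB2 at 0.09, DPB3 at 0.64 and DPB4 at 0.45. In the primase, PRI1 had -1.30 at 20 min and -0.41 at 60 min, while PRI2 had 0.66 and 0.17. The polymerase delta genes POL3, POL31 and POL32 lay between -0.54 and -0.88 at 60 min, all above the clamp POL30. RFA3, the smallest RPA subunit, had 0.64 at 20 min and -1.16 at 60 min, and so joined RFA1 and RFA2 on the negative side late.

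Cohesin divided as well. SMC3 had 0.05, -1.26 and -1.28, with MCD1 negative only at 60 min, and IRR1 had 0.38, 0.88 and 1.07. SCC2, the loader of the ring, had 0.00, -2.38 and -1.51. The cohesin list, which leaves out MCD1, held 8 genes, with 2 (25.0%) at least 2-fold negative at 20 min, 3 (37.5%) at 60 min and 1 (12.5%) positive at 60 min.

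**Figure D4:**
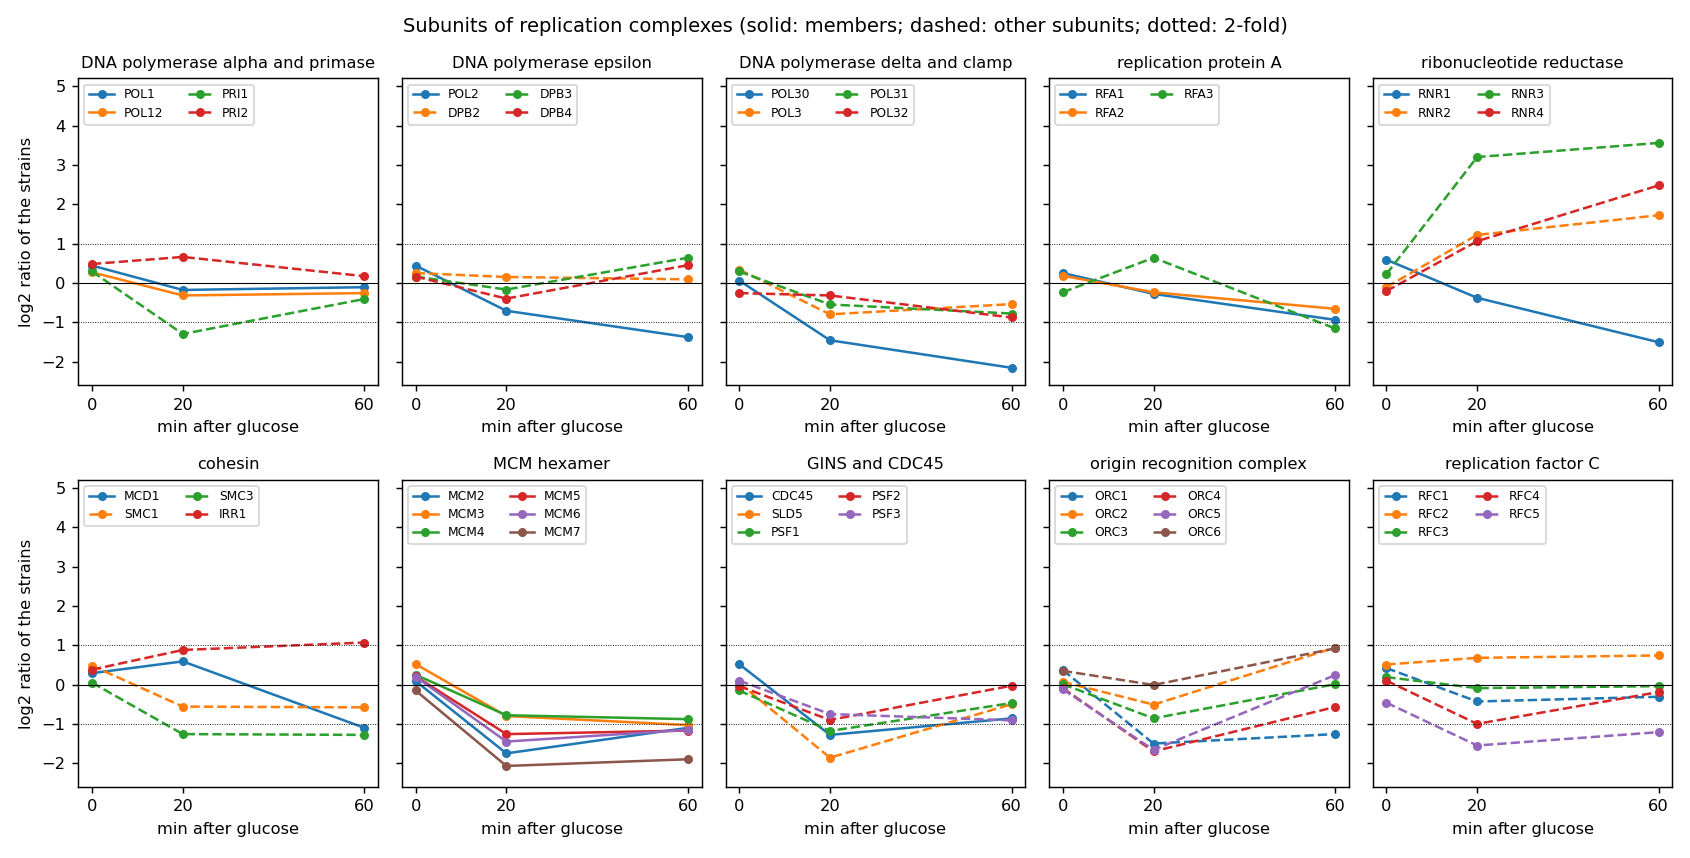
Log2 ratio of the strains (vertical axis) at 0, 20 and 60 min after glucose (horizontal axis) for the subunits of 10 replication complexes, 1 array per time, with members as solid lines and other subunits as dashed lines. The MCM lines run together below 0 after glucose, whereas in ribonucleotide reductase RNR1 ends at -1.51 and RNR2, RNR3 and RNR4 end between 1.72 and 3.56.

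The lists of genes that prepare and fire origins had more negative medians at 20 than at 60 min. Licensing genes had medians of -1.18 and 0.12 and firing genes -0.75 and -0.29, beside -1.36 and -1.12 for the MCM subunits. The 8 origin recognition and licensing genes held 4 (50.0%) at least 2-fold negative at 20 min and 1 (12.5%, near the share of all genes) at 60 min. ORC4 had -0.09, -1.70 (at low signal by the rule) and -0.57, and ORC5 had -0.12, -1.66 and 0.24. ORC1 was the exception at 60 min with 0.37, -1.50 and -1.26. The 11 origin firing genes held 2 (18.2%, near the share of all genes) at least 2-fold negative at 20 min, the GINS subunits SLD5 (-1.86) and PSF1 (-1.18), and none at 60 min, where these had -0.50 and -0.47.

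Among 23 other genes of the fork, 6 (26.1%) were at least 2-fold negative at each of 20 and 60 min and none positive. DNA2, a nuclease and helicase of the lagging strand, had -0.21, -1.94 and -0.91. CTF18, of a clamp loader, had 0.09, -1.87 and -1.84, and RFC5, of the standard clamp loader, had -0.46, -1.55 and -1.21. Over all 75 genes of these upstream, origin, fork, nucleotide and cohesin lists, 18 (24.0%) were at least 2-fold negative at 20 min and 14 (18.7%) at 60 min, with medians of -0.51 and -0.29. The members had 6 of 34 and 15 of 34 at these times, with medians of -0.30 and -0.91, and the difference between the sets was not tested.

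The genes of mitosis and the histones give the neighbouring phases for comparison. Of 18 genes of the G2/M cluster, 15 (83.3%) were at least 2-fold negative at 20 min and 14 (77.8%) at 60 min, with medians of -1.92 and -1.58, led at 20 min by SWI5 (-2.89), CDC20 (-2.64) and CDC5 (-2.44). The MCM subunits had medians of -1.36 and -1.12 at these times, and the MBF class -0.28 and -1.37. The 10 histone genes, whose RNA is made in S phase, had medians of 0.07 and -0.04, and the 2 (20.0%) past 2-fold at 60 min were the linker histone HHO1 (-1.15) and HTA1 (-1.11). HHO1 had 0.98 at 20 min, and its step of -2.13 to 60 min resembled those of CLB6 and MCD1. Whether these sets differ was not tested, since 1 array per time allows no test.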

How the data were processed

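The authors deposited 1 log2 ratio of the 2 channels per probe and array, for 10807 probes on 3 two-colour Agilent arrays. Per the labels, Cy5 was in channel 1 and Cy3 in channel 2, and dyes were not swapped on any array used here. The sources used here do not give the scanner, background correction, normalization, numerator or genome build. The log base was read from the spacing of tied values. Medians over all probes were 0.02, -0.15 and -0.08, and values were not centred. No intensities were used, and precision is limited by the number of arrays.

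The platform annotation gave 1 gene symbol to 9202 probes, several to 0 and none to 1605, and 9194 matched a gene of NCBI RefSeq's R64 annotation. A gene's value was the mean of its probes, and 5596, 5597 and 5596 genes had one at 0, 20 and 60 min. A gene was counted at a log2 size of 1.0 or more. Low signal was assigned to a gene where each of its probes lay within 0.001 of the array's commonest value plus the log2 ratio of whole numbers up to 8. Of the members, CLN2, TOS4 and RFA1 at 20 min and POL30 at 60 min matched, as did 10.9% and 8.57% of named probes on those arrays, and a match can be coincidence. Related genes such as CLN1 and CLN2 can bind each other's cRNA, which was not tested.

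Members, lists and classes were chosen with earlier results of these data known. All members are named. From each other list up to 3 genes past 2-fold after glucose are named, by size, and other genes named share a complex with a member or were chosen after their values were seen. Promoter sequences were not analysed here, so the planned motif search was not run. The calculations were tested on simulated data. Analyses used Python 3.11.15 with pandas 2.3.3.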

Additional observations from a re-analysis of the deposited data

Results flagged for a closer look

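Members are listed here when their ratio had opposite signs at different times, with both values beyond the gap that 95% of probe pairs stay under and at least 1 of them past 2-fold. None of these differences could be tested, since each rests on 1 array per time. Between 0 and 60 min RNR1 moved by -2.11, CDC21 by -2.06, TOS4 by -1.95, POL2 by -1.82 and MCM3 by -1.55, each from positive to negative. CDC45 moved by -1.81 from 0 to 20 min in the same sense. MCD1 moved by -1.68 from 20 to 60 min. YOX1 was the single gene to go from negative to positive, by 1.61 from 0 to 20 min.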

How the results depend on the processing

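No paired analysis was possible because each time had 1 array and no result came from a test. Of 165 recomputed counts and medians over the members, 140 held, 25 moved and 0 reversed. A count, or a share where the member list was cut, held if within 1.5 times. A median held only if within the spread of a probe. Reversal was defined only as a change of sign in a median of size 1.0 or more. That left the median difference from 0 to 60 min (-1.06) as the only result able to reverse, and counts could not. The 0 reversed therefore says nothing about the other results. At a threshold of 1.5-fold, 1 of 34 members was negative and 2 positive at 0 min, beside 5.29% and 5.34% of all genes. At 20 min 13 were negative and 5 positive, beside 29.0% and 26.6%. In the differences 20 minus 0, 60 minus 0 and 60 minus 20 min, 4, 1 and 1 were positive, beside 25.6%, 27.1% and 25.0%. At 3-fold, 2 were negative and 1 positive at 20 min, beside 5.72% and 8.88% of all genes, and 4 negative at 60 min, beside 5.29%. From 0 to 20 min 4 were negative and 1 positive, beside 5.92% and 8.24%. Another 3-fold count was 9 negative from 0 to 60 min, beside 5.04%, and 4 were negative from 20 to 60 min, beside 4.43%. Scaling the arrays to equal spread gave 3 negative and 7 positive members at 0 min, beside 9.33% and 12.4% of all genes, with a median of 0.62. It gave 1 positive member at 20 min, beside 11.8% of all genes, and a median of -0.73 at 60 min. The scaled median difference from 0 to 20 min was -0.90, and 2 members were positive from 0 to 60 min, beside 14.6%. With the first listed probe of each gene, 1 member was positive from 0 to 20 min, beside 16.3% of all genes. Without CLN3, CDC6 and the MCM genes, 2 of 26 members were negative at 20 min with a median of -0.09, and 5 from 0 to 20 min. All genes gave 16.5% and 16.4% there. The negative count at 20 min thus rests largely on the MCM genes. Centring, the last listed probe, leaving out low-signal genes or values of exactly 0, the mean over members, and members with 2 probes only (chosen after seeing the data) moved none. Signal over background was not analysed here.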
